A study of Mus musculus with 32 samples.

Results

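The liver response to Fc-GLP-1 in chow-fed mice was examined 2 weeks after 70% partial hepatectomy (PH). The members are the 8 arrays that the labels place in this comparison, of 32 arrays in the whole series. C+Fc-GLP-1 after PH (4 arrays) was set against C after PH (4 arrays). All mice were male C57/BL6, 8 weeks old when the diets began, and no transgene or mutation was carried by either group. C mice ate the standard chow diet for 3 weeks, received vehicle (saline) injections, underwent PH and stayed on chow for another 2 weeks. C+Fc-GLP-1 mice ate the same diet, were injected with Fc-GLP-1 for the last 2 weeks before surgery, underwent the same PH and stayed on drug until the liver was taken. Each of these 8 arrays held RNA of a separate liver. For comparison only, 2 further pairs of groups were used. C and C+Fc-GLP-1 before PH were, by the paper's account, liver removed at the hepatectomy itself, before any regrowth. MCD and M+Fc-GLP-1 after PH ate a methionine and choline deficient diet (MCD), with the same surgery and timing.

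The sources do not describe the drug alike. The study's methods give Fc-GLP-1, a GLP-1 peptide joined to an antibody Fc part, at 10 nmol/kg under the skin every second day. For the C+Fc-GLP-1 arrays after PH, the sample source in the labels names Fc-GLP-1 and then, for the weeks after PH, a dual agonist. For the other treated groups it names Fc-GLP-1 alone. The descriptions in the labels speak of an agonist that acts on the receptors of both GLP-1 and glucagon, at 4.4 mg/kg/day. The name Fc-GLP-1 is kept here, and which account is right could not be settled from the values.

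GLP-1 is a gut hormone released after a meal. It acts through its receptor on pancreatic islets to raise insulin secretion, lowers food intake through the brain and slows gastric emptying, so that the liver is reached largely through changes in insulin, glucagon and feeding. After PH the remaining hepatocytes re-enter the cell cycle under growth factors such as HGF and the ligands of the EGF receptor, and liver mass is restored within days in healthy rodents. At 2 weeks the cell cycle wave has normally passed. Sterol synthesis in hepatocytes is switched on by SREBP2 when sterols are scarce, lipogenesis by SREBP1c and ChREBP under insulin and glucose, and amino acid breakdown by glucagon and fasting.

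Levels are given as log2 intensity minus the array's own 75th percentile, so that 0 is the 75th percentile of that array and a difference of 1 is a doubling. They compare arrays for 1 probe and do not rank genes. The tissue matched its label: Alb, Ttr, Apoh, Serpina1a, Ahsg and Hnf4a were well above background on all 8 arrays, and no difference in the 6 hepatocyte markers passed the test. The summed linear level of these 6 ranged from 2377 to 3892 times the 75th percentile in C and from 3456 to 5519 in C+Fc-GLP-1. Of 4 skeletal muscle markers none passed the filter on dim probes, and Adipoq, Plin1 and Lep did not pass it either. In whole liver, a change in the number of cells of a type and a change in RNA per cell cannot be told apart.

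Treatment was bound up with the hybridisation. The 4 C arrays lay on slide 1 and were read on scanner 1 on scan day 1, whereas the 4 C+Fc-GLP-1 arrays lay on slide 5 and were read on scanner 2 on scan day 2. The spike-in controls also differed: the control probe (+)E1A_r60_a104 read 2.74 to 3.02 in log2 intensity on the C arrays and 13.03 to 14.06 on the C+Fc-GLP-1 arrays. Slide, scanner, scan day, spike-in and treatment cannot be told apart in this comparison. The 75th percentile of intensity was 638 ± 148 (SD, n = 4) in C and 398 ± 142 (SD, n = 4) in C+Fc-GLP-1, with a two-sided exact permutation p of 0.114 (0.0286 is the smallest that 4 against 4 allows). The share of probes well above background was 53.7% ± 4.7 in C and 55.2% ± 5.0 in C+Fc-GLP-1, with an exact permutation p of 0.60.

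C replicate 1 stood apart from the other C arrays, and each list of genes below was therefore also examined without it. Its correlation across genes with the mean of the other 3 C arrays was 0.953, against 0.980 to 0.988 for the others in their own comparisons. In Slco1a1, a bile acid and drug uptake transporter of male hepatocytes, this array read -6.53 and the other C arrays 3.63, 3.72 and 2.31. In Elovl3, a fatty acid elongase of male liver, it read -3.61 against 5.02, 4.70 and 5.39. The fetal transcript H19 went the other way, at 5.35 on this array and -3.18, -1.92 and -0.98 on the other C arrays. Sult1e1, the oestrogen sulfotransferase, read 4.18 there and -0.95, -2.83 and -3.17 on the others. Inflammatory and matrix genes were also high on this array, with Tnf at -0.52 against -4.40, -4.31 and -4.05, Ccl2 at 4.80 against 0.60, -0.17 and 0.81, and Col1a1 at 4.39 against 1.35, 0.52 and 1.85. Of the treated arrays, C+Fc-GLP-1 replicate 1 was also high in Tnf (-1.95), Ccl2 (4.41) and Col1a1 (3.67), but not in H19 (-1.72). The labels give no reason to set this mouse aside, so it was kept in the group.

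**Figure D1:**
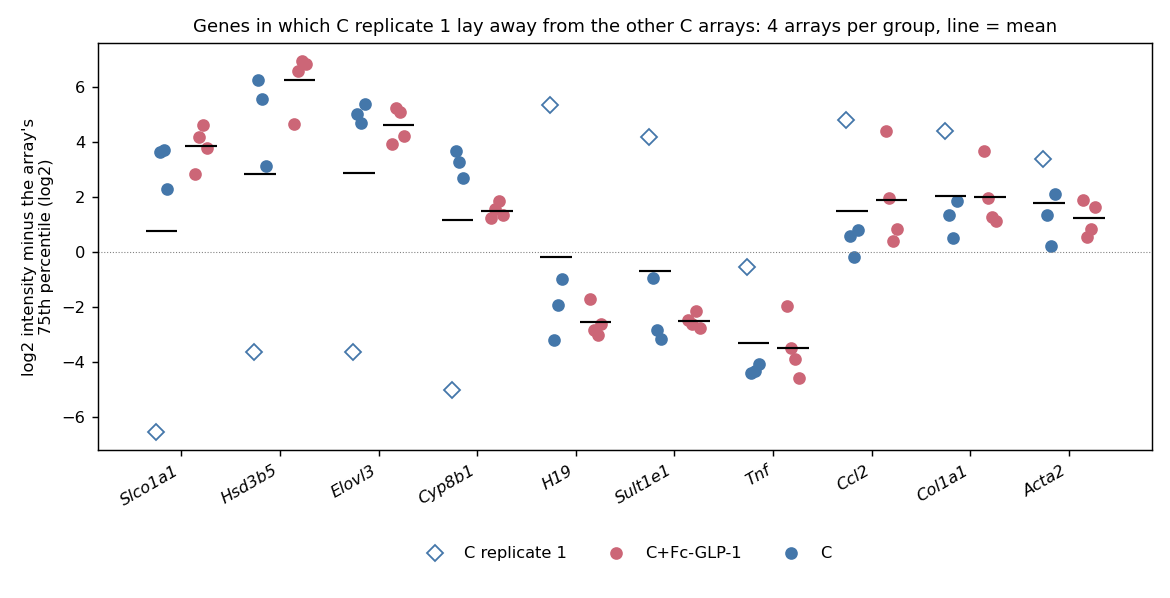
Level (log2 intensity minus the array's 75th percentile, y axis) of 10 genes (x axis) on the 4 C and 4 C+Fc-GLP-1 arrays after PH. The open diamond is C replicate 1, filled points are the other arrays and lines are group means over 4 arrays. C replicate 1 reads -6.53 for Slco1a1 and 5.35 for H19 while the other 7 arrays lie at 2.31 or above and at -0.98 or below. The 10 genes were chosen after their values were seen.

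The response as a whole was small. With limma over all arrays and Benjamini-Hochberg adjustment, 436 of 21012 genes passed an adjusted p of 0.05, which is 2.08% of the genes tested. Of these 239 (1.14%) were higher in C+Fc-GLP-1 and 197 (0.938%) were lower. The median standard error of a log2 difference was 0.33, and every called difference was at least 0.60. The values of the 4 treated and 4 untreated arrays did not overlap in 2201 genes (10.5%), 1265 higher (6.02%) and 936 lower (4.45%), and 392 of the 436 called genes were among them. Without C replicate 1, 370 genes passed, 153 higher and 217 lower, and 275 of them were among the 436. The count moved more in other settings. It was 182 and 228 without C replicates 2 and 3, 237 and 210 without C+Fc-GLP-1 replicates 1 and 3, and 88 in the fit of these 8 arrays alone. Without the filter on dim probes 211 were called, with normexp background correction and quantile normalization 136, and in the authors' normalized values 193. The split into higher and lower rested on the scaling. It was 54.8% higher as reported, 67.0% when arrays were centred on the median, 38.3% in the authors' normalized values and 32.1% when only probes bright on all arrays entered the 75th percentile. This last scaling moved the median difference of all genes from 0.04 to -0.07.

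Much of the called set had no gene name. Of the 6165 tested entries with no RefSeq gene, 250 were called (4.06%), of which 101 are named in the array design only by a chromosome region. Of the 14847 tested RefSeq genes, 186 were called (1.25%), 105 higher and 81 lower. The called set was partly shared with the MCD arrays, on which M+Fc-GLP-1 was set against MCD after PH with no array in common. There 1365 genes passed (6.5%), 780 higher (3.71%) and 585 lower (2.78%), and 180 genes passed in both comparisons, 41.3% of the chow set and 13.2% of the MCD set. Of those 180, 179 moved the same way. The MCD count fell to 709 and 688 without MCD replicates 1 and 2, to 815 and 823 without M+Fc-GLP-1 replicates 1 and 2, to 827 in the fit of those 8 arrays and to 767 without the filter on dim probes. Its split turned with the scaling, to 464 higher and 670 lower after median centring, 522 and 566 with normexp and 524 and 853 in the authors' values. The shared genes numbered 40 to 216 over all settings, with 61 of 63 in the same direction under normexp and 84 of 86 in the authors' values. In the MCD comparison too, the treated arrays lay on slide 5 and scanner 2 and the untreated arrays on scanner 1, on slide 2. Scan day and spike-in controls changed there as on chow, with (+)E1A_r60_a104 at 2.51 to 3.51 on MCD and 12.93 to 14.26 on M+Fc-GLP-1. Slide, scanner, scan day and spike-in cannot be told apart from treatment in the shared calls, and their part was not tested. Before PH, where both chow groups were read on scanner 2 but on different slides, 439 genes passed (2.09%), 202 higher (0.961%) and 237 lower (1.13%), and 27 were shared with the chow set after PH, 6.19% of the set after PH and 6.15% of the set before PH. Of these 27, 13 had the same direction. The count before PH was far from firm: 2457 with normexp, 2104 in the authors' values, 1031 after median centring (925 higher and 106 lower) and 48 on its own 8 arrays. It was 197, 246 and 289 without C before PH replicates 1, 2 and 4, and 278, 242, 232 and 258 without C+Fc-GLP-1 before PH replicates 1 to 4. Over all settings 0 to 37 genes were shared.

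**Figure D2:**
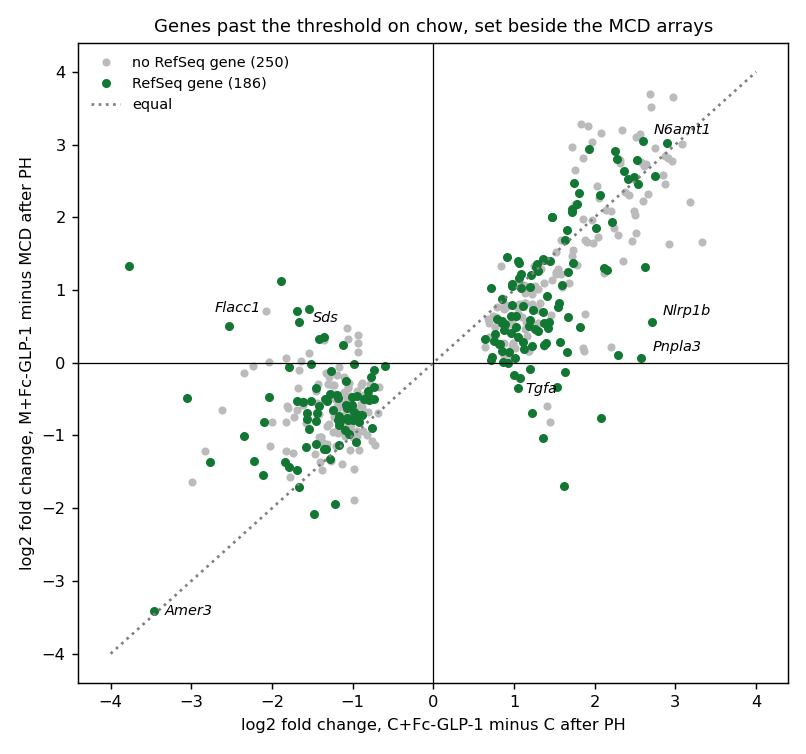
Each point is 1 of the 436 genes past the threshold on chow after PH, at its log2 fold change on chow (x axis) and its log2 fold change in M+Fc-GLP-1 minus MCD after PH (y axis). Green points are the 186 RefSeq genes, grey points the 250 entries without a RefSeq gene and the dotted line marks equal values. Most points (404 of 436) have the same sign on both axes, with Amer3 and N6amt1 near the line and Pnpla3, Nlrp1b and Sds away from it.

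Several of the clearest single differences were intracellular enzymes and regulators. Apart from N6amt1, Amer3 and Nrg4, which are among the 12 largest rises and falls, they were chosen after their values were seen. They are no ranking by adjusted p, which was 0.028 for Nrg4 in the limma fit. Other called genes with lower adjusted p are not described. Dusp6, the phosphatase that inactivates ERK and is itself an ERK target, read 2.93, 2.66, 2.92 and 3.04 on the C arrays and 4.62, 4.34, 4.68 and 4.20 on the C+Fc-GLP-1 arrays. The groups did not overlap, and Dusp6 rose 2.97-fold (log2 1.57 ± 0.21, SE, adjusted p = 0.00018). On the MCD arrays its log2 difference was 0.29 (adjusted p = 0.45), and the difference between the diets did not pass (1.28, adjusted p = 0.14). Before PH it rose by 0.87 (adjusted p = 0.029). Dusp6 passed in all 17 alternative settings.

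Copg2, a coatomer subunit of Golgi vesicles, read 0.07, 0.05, 0.25 and -0.09 in C and 1.85, 1.97, 1.50 and 2.16 in C+Fc-GLP-1. It rose 3.48-fold (log2 1.80 ± 0.24, adjusted p = 0.00016), and its other probe gave 1.71. On the MCD arrays it rose by 2.33 (adjusted p = 1.4e-06). Dus4l, a tRNA dihydrouridine synthase, rose 3.30-fold (log2 1.72 ± 0.22, adjusted p = 0.00011), with 1.37 on the MCD arrays. N6amt1, a methyltransferase, read -3.33 to -2.37 in C and -0.51 to 0.20 in C+Fc-GLP-1, and rose 6.05-fold (log2 2.60 ± 0.26, adjusted p = 1.25e-06), with 3.04 on the MCD arrays. Its other probe gave 0.26, so the 2 probes of N6amt1 disagreed. Pigr, the receptor that carries IgA into bile, rose 3.36-fold (log2 1.75 ± 0.32, adjusted p = 0.0038) while its other probe gave 0.31, also a disagreement.

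Amer3, a membrane protein that binds APC, was among the falls whose groups did not overlap. It read -3.73, -3.04, -2.73 and -3.12 in C and -6.30, -7.59, -6.44 and -6.13 in C+Fc-GLP-1, where it was well above background on no array. It was at least 3.49-fold lower (adjusted p = 0.00016). The MCD arrays gave a fitted log2 difference of -3.42. Nrg4, a neuregulin that activates ErbB4, read 1.34, -0.17, 0.36 and -0.13 in C and -1.60, -1.06, -1.54 and -0.90 in C+Fc-GLP-1, and fell 3.08-fold (log2 -1.62 ± 0.40, adjusted p = 0.028). The other 2 probes of Nrg4 gave -0.71 and -0.92.

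The remaining named genes of the 12 largest rises and 12 largest falls are given more briefly, and several were not well above background in 1 of the groups. Among the rises, Prss42, Olfr481, Khdc1c, Rhox4a and Hsd3b4 were well above background on no C array and were higher by at least 1.81-, 2.49-, 2.46-, 2.22- and 1.66-fold, respectively. Mrgprg, a sensory receptor gene, rose by 2.90 (adjusted p = 0.0050) and by 3.03 on the MCD arrays. Nlrp1b, an inflammasome sensor, rose by 2.71 (adjusted p = 0.0038), with 0.56 on the MCD arrays (adjusted p = 0.54), and its other probes were well above background on no array. Gcm1, a trophoblast transcription factor, rose by 2.27, with a range of 0.24 to 3.25 over its other 3 probes, and the other probe of Hsd3b4 gave -0.78. Ddx25, Pcp4l1 and Olfr281 rose by 2.62, 2.29 and 2.15. Among the falls, Olfr94, Flacc1, Gdpd2 and Tmem231 were well above background on no C+Fc-GLP-1 array and were lower by at least 2.68-, 2.41-, 2.93- and 2.32-fold. Iqsec3, an Arf exchange factor, fell by 1.70 on the log2 scale, from 3.28, 3.83, 3.28 and 3.26 to 1.15, 1.97, 1.91 and 1.84. Olfr612, Prss50, Vmn2r59, Dpp10 and Ninj2 fell by 2.12, 1.88, 1.83, 1.69 and 1.67 on the log2 scale. Olfr612 and Prss50 had a second probe of the opposite sign (0.50 and 0.36).

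Known pathways and cell types were followed in 50 gene lists with 856 distinct tested genes. Of the 856, 10 passed (1.17%, close to the 1.25% of all tested RefSeq genes), and 39 of the 50 lists held none: Tgfa, Pnpla3, Cyp2b13, Postn, Bmp2, Fcgr2b, Rps27 and Psmb2 rose, and Sds and Steap2 fell. In the fit of the 8 arrays alone none of the 856 passed.

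**Figure D3:**
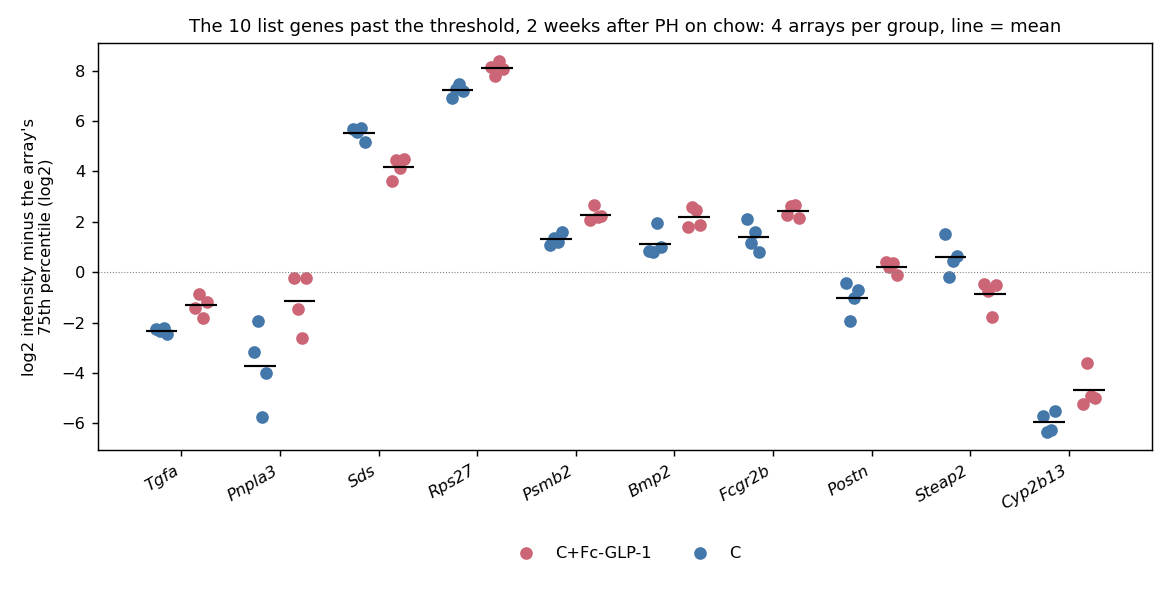
Level (log2 intensity minus the array's 75th percentile, y axis) of the 10 list genes past the threshold (x axis) on each of the 4 C and 4 C+Fc-GLP-1 arrays after PH, with lines at the group means. Points of the groups do not overlap in 8 of the 10 genes. In Pnpla3 and Bmp2 the groups overlap, with a C array at -1.94 and a C+Fc-GLP-1 array at -2.62 in Pnpla3.

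Genes of cholesterol synthesis and uptake were higher together without any of them passing the test. All 20 tested genes had a higher mean in C+Fc-GLP-1, with a median log2 difference of 0.83, against 53.7% of all tested genes higher and a median of 0.04. None was called, 11 had an unadjusted p under 0.05 (14.7% of all genes did), and in 9 of 20 the treated arrays lay above every C array (6.02% of all genes). Over the alternatives the median stayed between 0.55 and 0.97 and 18 to 20 of the 20 were higher. Without C replicate 1 it was 0.75, with 20 of 20 higher.

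The members named here run from the start of the pathway towards its end. Hmgcs1, which makes HMG-CoA, read 7.40, 7.37, 7.02 and 7.11 in C and 7.92, 8.01, 7.82 and 8.73 in C+Fc-GLP-1. The groups did not overlap, and the difference was 0.90 ± 0.40 (SE, adjusted p = 0.29). Mvk, mevalonate kinase, read 3.99, 4.42, 4.37 and 4.17 in C and 5.35, 5.12, 5.37 and 5.97 in C+Fc-GLP-1, a gap with no overlap and a difference of 1.22 ± 0.37 (adjusted p = 0.083). It had the lowest adjusted p of the list, and its other probe gave 0.98.

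Further along, Fdps, which makes farnesyl diphosphate, differed by 1.06 (adjusted p = 0.16), Fdft1, squalene synthase, by 1.01 (adjusted p = 0.14) and Sqle, squalene epoxidase, by 1.02 (adjusted p = 0.21). Sqle read 4.34 to 4.87 in C and 5.33 to 5.99 in C+Fc-GLP-1, with no overlap. Of the late steps, Lss, which closes the sterol rings, differed by 1.08 (adjusted p = 0.26) and Nsdhl, a sterol dehydrogenase, by 1.28 (adjusted p = 0.14). The smallest differences were those of Srebf2, the gene of SREBP2 itself (0.08), and Stard4, a sterol carrier (0.34).

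The same list stood differently in the other Fc-GLP-1 comparisons. Before PH on chow, on other arrays, 20 of 20 were higher with a median of 1.15, and 3 rose past the threshold (0.961% of all genes). After PH on the MCD diet, 4 of 20 were higher with a median of -0.58, and 2 fell past the threshold (2.78% of all genes). Idi1, which isomerises isopentenyl diphosphate, was 0.71 higher on chow after PH (adjusted p = 0.50), 1.33 higher before PH (adjusted p = 0.11) and fell by 1.64 on the MCD arrays (adjusted p = 0.028). The difference between the diets was not called for any of these genes, with 2.36 for Idi1 (adjusted p = 0.19) and 1.80 for Hmgcs1 (adjusted p = 0.27).

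**Figure D4:**
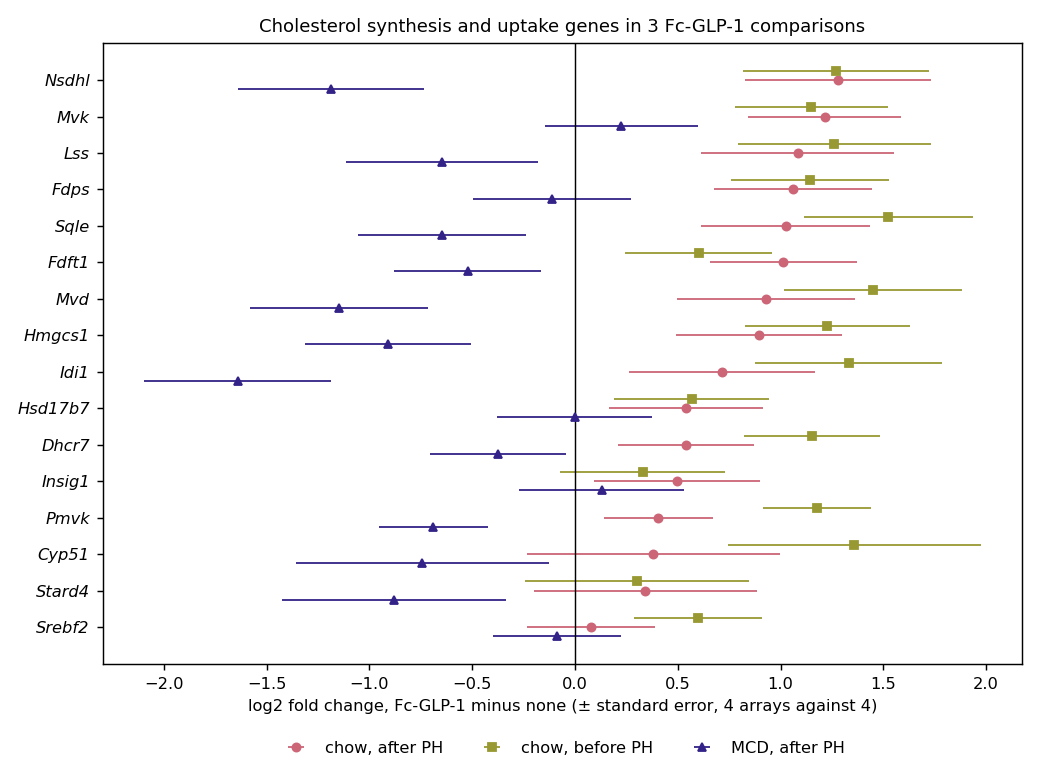
Log2 fold change of Fc-GLP-1 minus none (x axis, points with standard errors, 4 arrays against 4) for 16 of the 20 tested genes of cholesterol synthesis and uptake (y axis) on chow after PH (circles), on chow before PH (squares) and on MCD after PH (triangles). All 16 circles and 16 squares lie right of 0, and 14 of 16 triangles lie left of it.

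The promoters of these genes are shown because the list was higher as a group and SREBP2 acts on them together with NF-Y, which binds the CCAAT box. In the 250 bases before the transcription start (RefSeq, build GRCm38.p6), the letters CCAAT, read on both strands, occurred in 11 of 12 promoters available for the cholesterol list, in 9 of 19 of the lipogenesis list and in 33.8% of 32851 promoters of the same length. The E-box CACGTG occurred in 2 of the 12, against 6.02% of all promoters. The sequences run 5′ to 3′ in the direction of the gene, all on the plus strand, with capitals at CCAAT or its reverse complement ATTGG. Hmgcs1 lies at chr13:119690101-119690350 with 3 matches, Mvk at chr5:114444019-114444268 with 5, Idi1 at chr13:8885356-8885605 with 2 and, from the lipogenesis list, Pnpla3 at chr15:84167566-84167815 with 1.
Hmgcs1: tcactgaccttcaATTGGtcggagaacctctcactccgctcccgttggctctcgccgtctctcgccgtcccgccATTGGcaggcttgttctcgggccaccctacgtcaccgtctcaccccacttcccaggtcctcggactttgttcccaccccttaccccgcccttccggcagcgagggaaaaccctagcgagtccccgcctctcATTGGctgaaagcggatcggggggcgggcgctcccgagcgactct
Mvk: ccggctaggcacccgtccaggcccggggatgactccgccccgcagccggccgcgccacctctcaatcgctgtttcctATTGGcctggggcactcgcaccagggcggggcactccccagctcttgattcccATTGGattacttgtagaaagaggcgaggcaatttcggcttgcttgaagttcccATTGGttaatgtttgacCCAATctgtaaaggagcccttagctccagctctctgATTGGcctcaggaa
Idi1: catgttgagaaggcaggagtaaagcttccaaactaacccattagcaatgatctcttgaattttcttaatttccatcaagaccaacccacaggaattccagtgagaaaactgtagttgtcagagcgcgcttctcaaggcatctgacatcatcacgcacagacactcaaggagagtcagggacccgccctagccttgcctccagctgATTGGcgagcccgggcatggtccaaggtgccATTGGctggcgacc
Pnpla3: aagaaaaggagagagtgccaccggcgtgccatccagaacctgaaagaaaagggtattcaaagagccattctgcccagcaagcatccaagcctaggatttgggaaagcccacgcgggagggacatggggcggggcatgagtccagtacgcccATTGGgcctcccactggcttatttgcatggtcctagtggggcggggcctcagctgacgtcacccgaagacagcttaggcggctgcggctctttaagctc
A match is a run of letters and was not tested as a binding site.

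In lipogenesis and triglyceride synthesis, Pnpla3 was the called gene. Pnpla3, a lipid droplet protein that SREBP1c and ChREBP induce on feeding, read -3.15, -1.94, -5.74 and -4.02 in C and -0.22, -1.48, -2.62 and -0.23 in C+Fc-GLP-1. The groups overlapped, since C replicate 2 lay above C+Fc-GLP-1 replicate 3. Pnpla3 rose 5.97-fold (log2 2.58 ± 0.61, adjusted p = 0.022), it passed in 11 of 17 alternatives and its other probe gave 1.31. Before PH it rose by 2.52 (adjusted p = 0.028) and on the MCD arrays it differed by 0.06 (adjusted p = 0.97), while the difference between the diets did not pass (2.52, adjusted p = 0.32). Its paralogue Pnpla5 was 2.06 higher (adjusted p = 0.10) and rose by 3.91 before PH (adjusted p = 0.0028). Fasn, fatty acid synthase, was 1.01 higher with no overlap (adjusted p = 0.26), from 1.98 to 3.18 in C to 3.26 to 4.73 in C+Fc-GLP-1. Gpam, the first acyltransferase of triglyceride synthesis, was 0.98 higher (adjusted p = 0.094), but its other probe gave -0.22. Of the 23 tested genes 16 were higher, with a median of 0.36 (0.08 to 0.47 over the alternatives). Before PH the median was 0.68, and 4 of the 23 rose past the threshold (0.961% of all genes).

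Fatty acid oxidation genes had no settled direction. Of 30 PPAR alpha targets 15 were higher, with a median of 0.01 and none called, but 9 (median -0.23) were higher with normexp, 9 (-0.27) in the authors' values and 22 (0.27) without C+Fc-GLP-1 replicate 1. Fgf21, the fasting hepatokine, was 1.65 higher (adjusted p = 0.11), at -3.80 to -2.87 in C and -3.54 to -0.19 in C+Fc-GLP-1, so that the groups overlapped. Lipid droplet and lipoprotein genes had a median of 0.07 with none called.

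Amino acid breakdown was represented by Sds, serine dehydratase, a periportal enzyme that glucagon and protein feeding induce. Sds read 5.69, 5.55, 5.71 and 5.17 in C and 3.64, 4.44, 4.12 and 4.48 in C+Fc-GLP-1. No treated array reached the lowest C array, and Sds fell 2.57-fold (log2 -1.36 ± 0.30, adjusted p = 0.015), with -1.59 in its other probe. It passed in 15 of 17 alternatives. Its log2 difference was 0.36 on the MCD arrays (adjusted p = 0.51) and -0.94 before PH (adjusted p = 0.091). Sdsl, a serine dehydratase paralogue chosen after its values were seen, fell 2.12-fold, from 4.57 to 5.35 in C to 3.78 to 4.15 in C+Fc-GLP-1 (adjusted p = 0.029). Of the whole list of amino acid catabolism and the urea cycle, 13 of 23 genes were higher, with a median of 0.02, and Sds was the only one called. This share also moved with the setting, to 5 of 23 with normexp (median -0.26) and in the authors' values (-0.30), 7 of 23 (-0.24) without C replicate 1 and 17 of 23 (0.28) without C+Fc-GLP-1 replicate 1. Glucose and glycogen genes had a median of 0.25 and none called, with 0.05 without C replicate 1. Steap2, a metalloreductase of iron uptake, fell 2.75-fold (log2 -1.46 ± 0.34, adjusted p = 0.020), from -0.20 to 1.50 in C to -1.76 to -0.48 in C+Fc-GLP-1, while the other 14 iron genes gave no call.

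The receptors for GLP-1 and glucagon did not differ past the threshold. Glp1r read -3.81, -3.25, -2.93 and -3.19 in C and -4.58 to -3.42 in C+Fc-GLP-1 (log2 -0.61, adjusted p = 0.65), its other probe gave 0.60, and it was well above background on 3 of the 4 treated arrays. Gcgr, the glucagon receptor of hepatocytes, was 0.73 higher (adjusted p = 0.20). None of the 17 genes of insulin, GLP-1 and glucagon signalling was called, with a median of -0.06.

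The medians of the growth hormone and bile acid lists depended on C replicate 1. That of the bile acid list was 0.31, or 0.02 without C replicate 1. In the growth hormone and STAT5 list 20 of 28 genes were higher, with a median of 0.43, or 16 of 28 and 0.13 without that array, and none was called. Hsd3b5, a male steroid dehydrogenase, was 3.42 higher (adjusted p = 0.13) and 1.27 without it. Bcl6, a repressor of STAT5 targets, read 1.66 to 3.98 in C and 3.01 to 5.82 in C+Fc-GLP-1, a difference of 2.00 (adjusted p = 0.12). Cyp7a1, the rate-limiting enzyme of bile acid synthesis, read 2.26 to 4.13 in C and 0.02 to 2.61 in C+Fc-GLP-1, a difference of -1.89 (adjusted p = 0.10). Cyp8b1, the 12-alpha-hydroxylase, was 0.34 higher with all arrays (adjusted p = 0.93) and turned to -1.72 without C replicate 1 (adjusted p = 0.039): that array read -5.00, the other C arrays 3.68, 3.29 and 2.68 and the treated arrays 1.24 to 1.86. Slco1a1 was 3.08 higher with that array (adjusted p = 0.19) and 0.64 without it. Of the xenobiotic genes, Cyp2b13 was called (adjusted p = 0.041) but was well above background on no C array and 1 treated array, and no fold is given. Nr1i2, the pregnane X receptor, read 2.67 to 3.56 in C and 1.68 to 2.26 in C+Fc-GLP-1, a difference of -1.22 (adjusted p = 0.076).

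Among regeneration genes, Tgfa was the called ligand. Tgfa, an EGF receptor ligand that hepatocytes make after PH, read -2.27, -2.34, -2.21 and -2.45 in C and -1.41, -0.85, -1.81 and -1.17 in C+Fc-GLP-1. Every treated array lay above every C array, and Tgfa rose 2.01-fold (log2 1.00 ± 0.20, adjusted p = 0.0080), passing in 16 of 17 alternatives. The log2 difference was -0.17 on the MCD arrays (adjusted p = 0.67) and 0.19 before PH (adjusted p = 0.65). The difference from the MCD arrays was 1.17 (adjusted p = 0.14) and that from before PH 0.81 (adjusted p = 0.18). Of the other ligands, Wnt2, an endothelial Wnt, was 1.16 higher (adjusted p = 0.13) and Rspo3, which sharpens Wnt signalling, 0.69 higher (adjusted p = 0.24), and Ereg, another EGF receptor ligand, was 1.50 lower on a dim probe (adjusted p = 0.19). The list of 18 ligands and receptors had a median of 0.34, with 11 higher.

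No cell cycle gene passed. Of 26 tested genes of mitosis and the cell cycle 18 were higher, with a median of 0.15, and the median moved between -0.37 without C replicate 3 and 0.72 without C replicate 1. Of 26 DNA replication genes 5 were higher, with a median of -0.21, or 14 and 0.04 without C replicate 1. Top2a read -0.19 on C replicate 1, -2.47, -3.91 and -1.56 on the other C arrays and -3.52 to -1.81 on the treated arrays. Cdkn1a, the p21 inhibitor of cyclin-dependent kinases, was 1.73 higher (adjusted p = 0.12), with 1.22, 0.29, -2.12 and -0.27 in C and 2.11, 2.19, 1.19 and 0.55 in C+Fc-GLP-1. Its other, dimmer probes gave -0.42 and 1.19. Cdt1, a replication licensing factor, was 0.92 lower (adjusted p = 0.080).

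Inflammatory and stromal lists turned on single arrays of both groups. Of 22 Kupffer cell and macrophage genes 5 were higher with all arrays, at a median of -0.20, and 21 of 22 without C replicate 1, at 0.23. For MHC class II genes the count went from 4 to 13 of 15, for interferon-stimulated genes from 12 to 22 of 25, for collagens and matrix from 12 to 22 of 24, and for recruited macrophage genes from 3 to 10 of 17. C+Fc-GLP-1 replicate 1 was also high in most of these lists. Against the mean of the other 3 C arrays, the mean level of the Kupffer cell list was 1.10 higher on that array and 0.10, 0.07 and -0.17 on the other treated arrays. For MHC class II genes the values were 1.30 and then 0.03, 0.05 and -0.34, and for collagens and matrix 1.00 and then 0.22, 0.06 and 0.08. Without C+Fc-GLP-1 replicate 1 and with all C arrays, 2 of 22 Kupffer cell genes were higher, at a median of -0.44. With all arrays, none of these lists held a call in either direction beyond Postn. The sum of the 6 Kupffer cell markers was 88.1 to 406 times the 75th percentile in C and 130 to 248 in C+Fc-GLP-1, and that of the neutrophil markers S100a8, S100a9, Ly6g and Mpo 7.51 to 29.7 and 6.60 to 47.1. T and NK cell genes had a median of 0.34 with 15 of 22 higher, and 0.47 without C replicate 1. Within them Cd3g was 1.09 higher (adjusted p = 0.14) and Cd3e 0.64 lower (adjusted p = 0.23), although both encode chains of the same T cell receptor complex. The sum of the 4 tested T and NK cell markers leaned the other way from the list, with overlap. It was 6.38 to 8.88 times the 75th percentile in C and 5.20 to 8.12 in C+Fc-GLP-1 (two-sided exact permutation p = 0.057).

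**Figure D5:**
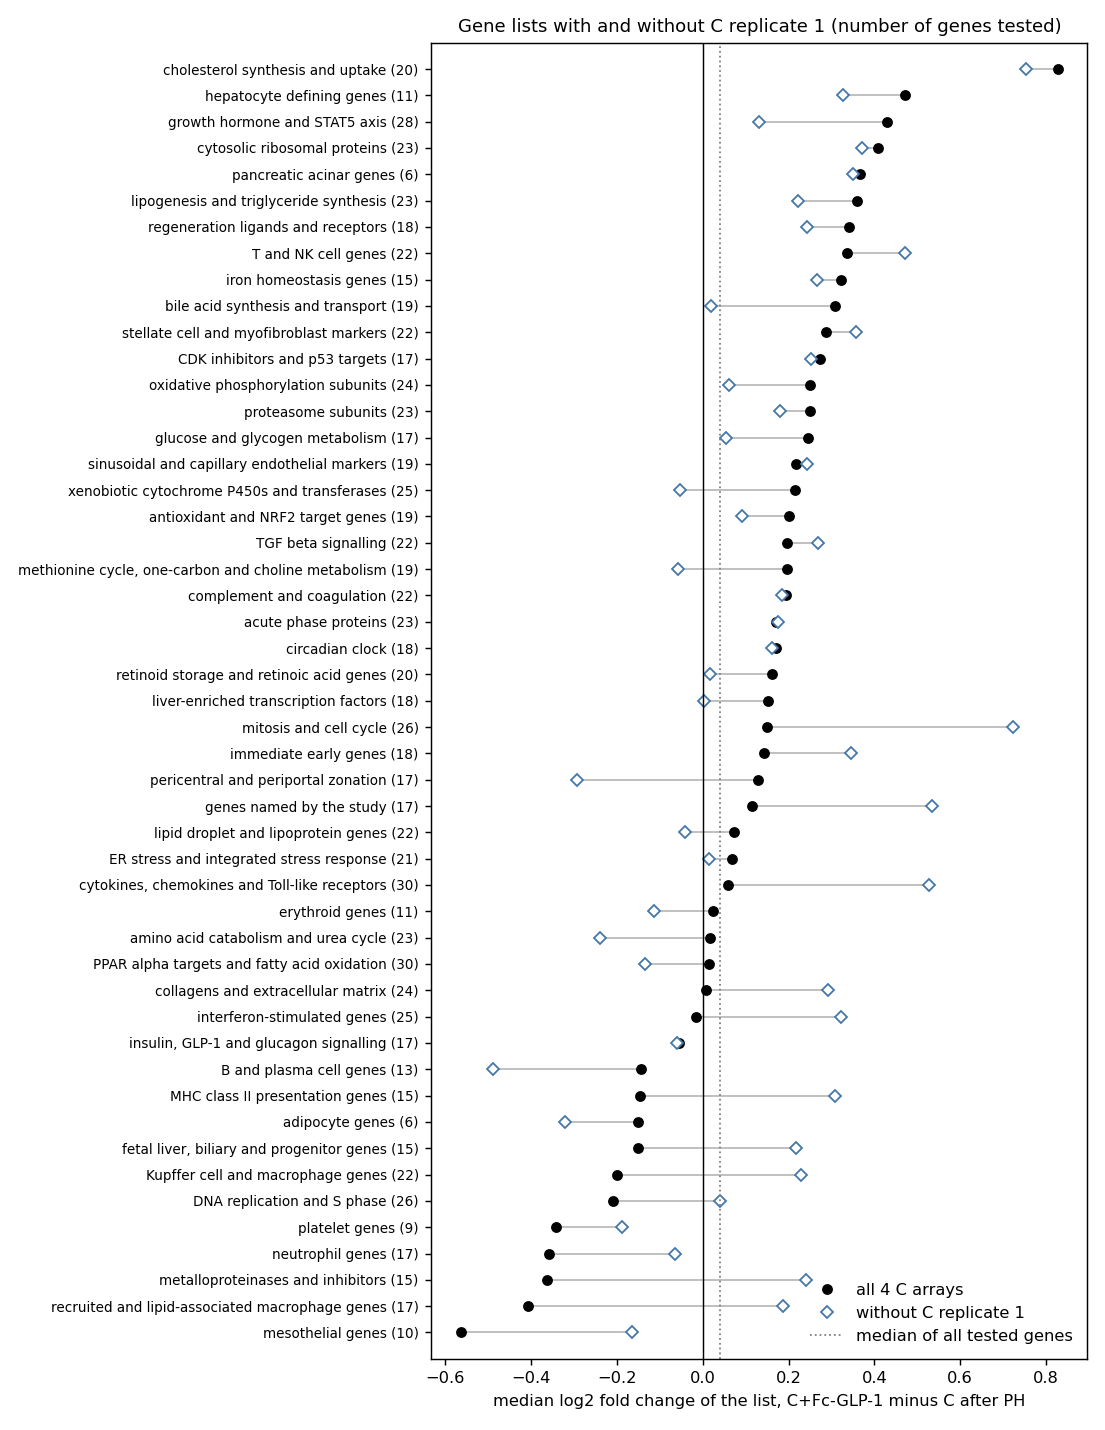
Median log2 fold change (x axis, C+Fc-GLP-1 minus C after PH) of each gene list with at least 5 tested genes (y axis, number of tested genes in brackets), with all 4 C arrays (filled circles) and without C replicate 1 (open diamonds). The dotted line is the median of all tested genes (0.04). Cholesterol synthesis stays highest, at 0.83 and 0.75, and macrophage, matrix-remodelling and mitosis lists shift right without C replicate 1.

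Called genes of the non-parenchymal lists were few. Bmp2, a ligand that sinusoidal endothelial cells make and that induces hepcidin, read 0.83, 0.79, 1.94 and 0.99 in C and 1.80, 2.57, 2.47 and 1.88 in C+Fc-GLP-1, and rose 2.06-fold (log2 1.04 ± 0.24, adjusted p = 0.020). The groups overlapped by C replicate 3. Fcgr2b, the inhibitory Fc receptor of sinusoidal endothelium, rose 2.03-fold, from 0.80 to 2.10 in C to 2.17 to 2.68 in C+Fc-GLP-1 (adjusted p = 0.029). Postn, a matrix protein of activated stellate cells, rose 2.36-fold, from -1.94 to -0.44 in C to -0.12 to 0.40 in C+Fc-GLP-1 (adjusted p = 0.028). Smad6, an inhibitor that BMP signalling induces, was 0.80 higher (adjusted p = 0.088) and Ecm1, a matrix protein, 0.88 higher (adjusted p = 0.074), both with no overlap. The endothelial markers Pecam1, Stab2, Clec4g and Lyve1 summed to 39.5 to 92.2 times the 75th percentile in C and 49.6 to 83.1 in C+Fc-GLP-1, with an exact permutation p of 0.86 (0.0286 is the smallest possible).

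Of the 18 inflammation, stellate cell and lipid genes that the study itself examined, 17 were tested and none passed, with a median of 0.12, or 0.53 without C replicate 1. Their choice by the study is not independent of these livers. By qPCR, the paper reported significant rises of Ifng, Gzmb, Prf1, Acta2, Col1a1, Tgfb and Mmp2 in treated chow mice after PH. It also reported rises of Dpp4 and Fap. The array values given here are from another assay. Tnf differed by -0.15 and Il1b by 0.33, Adgre1 by -0.27 and Ccl2 by 0.38, each with an adjusted p of 0.82 or more. Col1a1 differed by -0.02 and Tgfb1 by 0.03, and Acta2, of contractile stellate cells, by -0.54 (adjusted p = 0.72). Des, another stellate cell gene, was 0.57 higher (adjusted p = 0.29). Mmp2, Dpp4 and Fap were 0.11, 0.18 and 0.59 higher. Among the cytotoxic and neutrophil genes, Gzmb differed by -0.36, Prf1 by -0.03, Ifng by 0.31 and Ly6g by 0.60, with adjusted p from 0.33 to 0.98. These p values do not show that the levels were equal: with a standard error of 0.64, the difference in Tnf is loosely bounded.

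Ribosomal and proteasome genes were mostly higher, by a size that depended on the scaling, and the proteasome median lost its sign in the authors' normalized values. Of 23 cytosolic ribosomal protein genes 22 were higher, with a median of 0.41 (0.08 to 0.48 over the alternatives). In 10 of the 23 the treated arrays lay above every C array (6.02% of all genes). Rps27 rose 1.84-fold (log2 0.88 ± 0.18, adjusted p = 0.0083), from 6.93, 7.27, 7.47 and 7.18 in C to 8.15, 7.79, 8.37 and 8.07 in C+Fc-GLP-1, with 0.59 to 0.85 in its other 3 probes. Rps3 was 0.71 higher (adjusted p = 0.055), but a further probe of it gave -0.47. On the MCD arrays 20 of 23 ribosomal genes were higher, at a median of 0.40, and before PH 12 of 23, at 0.01. Of 23 proteasome genes 22 were higher, at a median of 0.25, against -0.00375 in the authors' normalized values. Psmb2 rose 1.96-fold (log2 0.97 ± 0.24, adjusted p = 0.026), from 1.06 to 1.61 in C to 2.05 to 2.66 in C+Fc-GLP-1, and by 1.06 on the MCD arrays. Hepatocyte genes were higher in 11 of 11, at a median of 0.47, but the authors' normalized values gave -0.01.

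Whether the response on chow differed from that on the MCD diet was tested in the same limma model. No gene passed, while 1825 (8.69%) had an unadjusted p under 0.05. The absence of calls does not show that the responses were equal. C after PH lay on slide 1 and MCD after PH on slide 2, and a difference between these slides does not cancel here. Other settings called 0 to 14 genes, the highest without C replicate 1. Flacc1 was nearest among the genes named here, at -3.03 (adjusted p = 0.072).

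Whether the response after PH differed from that before PH on chow was tested likewise. It did so in 239 genes (1.14%), 198 with a higher value after PH (0.942%) and 41 with a lower one (0.195%). The 4 groups lay on 4 slides, and C after PH was the only 1 of them read on scanner 1 on scan day 1, with the other spike-in profile. Slide, scanner, scan day and spike-in cannot be told apart from the groups here. The tissue before PH was that removed at surgery, so arrays before and after PH may come from the same mice. The fit held no term for the mouse. The largest differences were in Tbx22 (5.65), Ermn (5.28), Cmya5 (4.79), Notch1 (4.78), Olfr433 (4.69) and Olfr281 (4.69), and in the other direction Olfr94 (-3.30), Amer3 (-3.04), Mt1 (-2.95), Gdpd2 (-2.73), Flacc1 (-2.71) and Olfr103 (-2.32). The 2 probes of Ermn disagreed after PH, at 2.31 and 0.09, both well above background on all arrays of both groups. The other probes of Tbx22 (-0.11) and Cmya5 (0.28) were well above background on no array. Mt1, a metallothionein that zinc and stress induce, was 1.38 lower on chow after PH (adjusted p = 0.16) and 1.56 higher before PH (adjusted p = 0.095). Notch1, a receptor of biliary cell fate, was 2.22 higher after PH (adjusted p = 0.072) and fell by 2.56 before PH (adjusted p = 0.036), and its other probe gave 0.71 after PH. Tgfa, Pnpla3, Sds and the cholesterol genes were not among the 239.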

How the data were processed

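Total liver RNA was labelled with Cy3 and hybridised to Agilent SurePrint G3 mouse 8 x 60K arrays. The authors deposited Feature Extraction scanner files, whose background-subtracted processed signal is an intensity, and log2 values that the authors normalized with limma, apart for arrays before and after PH, used here as an alternative. Genome build and annotation are not given in the sources used here. Here, log2 intensity minus each array's 75th percentile over non-control spots was taken, flagged outlier spots and probes not well above background on all 4 arrays of any of 8 groups were left out, and the brightest probe stood for a gene (28937 probes, 21012 genes). Names came from RefSeq accessions (27656 of 55681 probes), symbols (3401) or synonyms (321), otherwise from the file. limma 3.58.1 (R 4.3.3) fitted 8 groups over 32 arrays, with Benjamini-Hochberg adjustment at 0.05. The script was tested on simulated data. Array number limits the precision.

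Named are the 12 largest rises and falls among called genes whose values do not overlap (predicted genes and clones left out, and entries without a RefSeq gene, a restriction added after seeing values), the genes the study examined, up to 4 members of each list with the lowest adjusted p and any called member, and the 6 largest differences in each direction between comparisons. Some list members count in the list totals but are not reported singly here. The comparison and the lists were chosen with earlier results of these data known. For a probe not well above background on any array of 1 group, "at least" sets the bright group's mean against the lowest signal well above background on the dim arrays, or the dim probe's own where higher. Alternatives changed background correction, scaling, probe filter, probe choice, the arrays fitted and the replicate block, and left out each array.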

Additional observations from a re-analysis of the deposited data

Results flagged for a closer look

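In 11 of 196 sets (98 genes in 2 groups) an array lay far from the other 3 of its group by Dixon's test, a test that picks about 1 in 20 groups by chance, so that a similar number would be picked with no array apart. C replicate 1 was the outlying array for Tnf (-0.52), Cyp8b1 (-5.00), Slco1a1 (-6.53) and Elovl3 (-3.61). Iqsec3 stood out on C replicate 2 (3.83) and on C+Fc-GLP-1 replicate 1 (1.15), and Ermn on C replicate 4 (4.23). C+Fc-GLP-1 replicate 1 was also low for Hsd3b5 (4.64). Mrgprg was low on C+Fc-GLP-1 replicate 2 (-3.07), and Olfr281 (-2.37) and Olfr103 (-2.38) were high on C+Fc-GLP-1 replicate 4. Over all tested genes, C replicate 1 was the outlying array in 986 (4.69%), against 120 to 399 for the other 7 arrays.

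For 22 named genes the chow response after PH differed from that before PH in the limma fit (adjusted p under 0.05, log2 differences of differences). Over all tested genes 239 of 21012 did (1.14%). The 6 largest in each direction were named because of this same difference, so the count of 22 is no result about the named genes. Those higher after PH were Tbx22 (5.65), Ermn (5.28), Cmya5 (4.79), Notch1 (4.78), Olfr281 (4.69), Olfr433 (4.69), Prss42 (4.63), Mrgprg (4.18), Ndc80 (4.04), Gcm1 (3.79), Olfr481 (3.43), Khdc1c (3.22), Pigr (2.54), N6amt1 (2.14) and Copg2 (1.70). Those lower were Olfr94 (-3.30), Amer3 (-3.04), Mt1 (-2.95), Gdpd2 (-2.73), Flacc1 (-2.71), Olfr103 (-2.32) and Dpp10 (-1.97). Ndc80, a kinetochore protein, was 1.39 higher after PH (adjusted p = 0.31) and fell by 2.65 before PH (adjusted p = 0.028). For genes that were dim on a whole group these are fitted values and no bounds. The probes of Ermn, N6amt1 and Pigr disagreed after PH, as given above.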

How the results depend on the processing

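The 436 calls on chow after PH became 136 with normexp and quantile normalization (2072 at an unadjusted p under 0.05), 193 in the authors' values, 211 without the filter on dim probes, 88 in the fit of the 8 arrays alone, 352 after median centring and 592 with the percentile over bright probes. Leaving out 1 of these 8 arrays gave 182 (without C replicate 2) to 370 (without C replicate 1), with 228 without C replicate 3 and 237 and 210 without C+Fc-GLP-1 replicates 1 and 3. Leaving out 1 array of another group gave 389 (without MCD before PH replicate 2) to 502 (without M+Fc-GLP-1 before PH replicate 1). Between C and C+Fc-GLP-1 after PH, which are different mice, residuals of same-numbered arrays correlated at 0.52, -0.02, 0.21 and 0.01. Residuals of arrays before and after PH were not compared, so a pairing of these by mouse was not examined. The fit with the replicate number as a block called 405. The test between diets, 0 as reported, called 5 with normexp, 5 in the authors' values, 1 in the fit of only its own arrays and 0 to 14 with 1 array left out (4 without C replicate 2, 2 without MCD replicate 4, 3 without M+Fc-GLP-1 replicate 3). The test between after and before PH, 239, called 602 with normexp, 480 in the authors' values, 159 in its own arrays and 132 to 286 with 1 array left out, with 140 without C replicate 1, 145 and 149 without replicate 2 of either chow group before PH, and 132 and 134 without C+Fc-GLP-1 replicates 3 and 4. Of the list genes 10 passed, against 5 with normexp, 6 in the authors' values, 5 without the filter, 0 in the 8 arrays alone and 4 to 10 with 1 array left out (6 without C replicate 2, 4 without C+Fc-GLP-1 replicate 3). Cyp8b1, at 0.34, ranged from -1.72 (without C replicate 1) to 1.18 (without C replicate 2) with 1 array left out. The cause was not tested, beyond the smaller number of arrays. All 39 called genes named here kept their sign in each alternative, and 10 of them were called in all but the fit of the 8 arrays. Probes near background limit what can be said of the dimmest genes.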

Other observations

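Platelet genes were the only list of 9 or more tested genes with none higher after PH on chow: 0 of 9, at a median of -0.34, or 2 of 9 and -0.19 without C replicate 1. On the MCD arrays 0 of 9 were higher, at -0.49, and before PH 6 of 9, at 0.24. Mesothelial genes had a median of -0.56 with 2 of 10 higher, or -0.16 and 3 of 10 without C replicate 1. Among plasma cell genes Jchain, the IgA and IgM joining chain, read -0.03, 3.05, 2.02 and 0.91 in C and 1.42, 0.01, -1.36 and -1.35 in C+Fc-GLP-1 (-1.81, adjusted p = 0.14), and it fell by 3.40 on the MCD arrays (adjusted p = 0.0019).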
